A study of Mus musculus with 3 samples.

Results

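The genes described here are a list of cell cycle and mitosis genes in cultured dorsal root ganglion cells, chosen by gene symbol as a reading of dividing, non-neuronal cells. The list names 35 genes, of which 33 were measured, out of 30142 genes with a probe set of their own. Each of the 33 had 1 probe set, and all 33 lay at or above the background floor of 43.7 intensity units, below which lie 95% of the vomeronasal receptor genes on the array. Ccnb1 and Ccnd1 are not analysed here, Ccnd1 because its probe set also carries the name of a microRNA gene. The rule left out kinesins and histones as groups, but its list holds the motor protein gene Cenpe and the centromeric histone variant gene Cenpa. It used no measured value apart from brightness.

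The cells were primary dorsal root ganglion neurons of male ICR mice (an outbred strain) aged 8 to 10 weeks, cultured for 72 hours in 1 of 3 media, with 1 array a medium. The first medium held recombinant semaphorin 3E at 1 µg/ml (SEMA3E, an axon guidance protein that cells secrete) and a SEMA3E-blocking IgG at 1 µg/ml, the second held 1 µg/ml SEMA3E without IgG, and the control medium held neither. All 3 media were DMEM with the B27 supplement. The labels do not say how many animals each culture came from or whether it was purified, and since each medium has a single array, the differences carry no test and no error.

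Cell division is driven by cyclins, which switch on cyclin-dependent kinases in turn as a cell passes from G1 through DNA synthesis (S phase) to mitosis. E2F transcription factors turn on replication genes at the entry to S phase, and the later mitotic genes are switched on in part through CCAAT boxes and CHR elements in their promoters. Adult sensory neurons have left the cell cycle, whereas satellite glia, Schwann cells, fibroblasts and macrophages of the ganglion can divide in culture. In RNA of a mixed culture, fewer dividing cells and less of a transcript per cell cannot be told apart.

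Promoters of the genes that the results turn on are shown first, because cell cycle genes share promoter elements that the choice by symbol did not use. In RefSeq (GRCm38.p6) 28 of the 33 genes had a promoter. In the 250 bases before the transcript start that RefSeq's promoter table uses, CCAAT on either strand was found in 22 of 28 (78.6%), against 36.3% of 17491 protein-coding promoters. An E2F-like word (GGCGGGA or TTTGGCG, either strand) was found in 10 of 28 (35.7%), against 14.0% of all. A CHR word (TTTGAA or TTCGAA, either strand) was found in 8 of 28 (28.6%), against 16.4% of all. Among genes of G2, mitosis and cytokinesis 7 of 19 held a CHR word, and among the rest 1 of 9. In the same 2 groups CCAAT was found in 15 of 19 and 7 of 9, and an E2F-like word in 6 of 19 and 4 of 9. Hits of different motifs overlapped 0 times in these 28 promoters. A match is a description of the letters and not evidence of a bound site. Plk1, Cenpe, Cenpf and Racgap1 are shown because each had its lowest value in the SEMA3E array and equal values in the other two, and Pcna because its 3 values all differed. The windows are chr7:122159185-122159434 (plus strand), chr3:135212313-135212562 (plus strand), chr1:189688087-189688336 (minus strand), chr15:99651657-99651906 (minus strand) and chr2:132253181-132253430 (minus strand), written 5′ to 3′ along the gene with CCAAT (or ATTGG, its reverse) and the E2F-like word in capitals.
Plk1: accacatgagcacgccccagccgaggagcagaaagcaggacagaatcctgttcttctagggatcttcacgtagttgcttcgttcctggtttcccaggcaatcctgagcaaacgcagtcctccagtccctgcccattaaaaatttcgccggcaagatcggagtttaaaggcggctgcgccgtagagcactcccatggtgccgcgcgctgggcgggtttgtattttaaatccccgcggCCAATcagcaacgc
Cenpe: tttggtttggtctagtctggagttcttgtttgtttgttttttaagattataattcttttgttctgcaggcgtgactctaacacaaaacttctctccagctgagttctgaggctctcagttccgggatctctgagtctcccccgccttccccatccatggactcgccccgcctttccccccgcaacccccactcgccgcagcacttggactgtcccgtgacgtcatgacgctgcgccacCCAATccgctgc
Cenpf: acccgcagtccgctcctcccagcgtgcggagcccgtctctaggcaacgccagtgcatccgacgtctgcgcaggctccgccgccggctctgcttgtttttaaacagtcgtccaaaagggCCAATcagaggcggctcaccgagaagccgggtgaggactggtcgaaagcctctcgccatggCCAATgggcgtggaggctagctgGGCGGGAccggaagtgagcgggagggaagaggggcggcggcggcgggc
Racgap1: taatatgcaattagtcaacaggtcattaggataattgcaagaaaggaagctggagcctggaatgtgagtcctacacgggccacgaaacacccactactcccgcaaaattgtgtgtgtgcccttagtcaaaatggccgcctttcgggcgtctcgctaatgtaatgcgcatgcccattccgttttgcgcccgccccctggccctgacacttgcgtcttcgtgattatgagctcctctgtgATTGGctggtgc
Pcna: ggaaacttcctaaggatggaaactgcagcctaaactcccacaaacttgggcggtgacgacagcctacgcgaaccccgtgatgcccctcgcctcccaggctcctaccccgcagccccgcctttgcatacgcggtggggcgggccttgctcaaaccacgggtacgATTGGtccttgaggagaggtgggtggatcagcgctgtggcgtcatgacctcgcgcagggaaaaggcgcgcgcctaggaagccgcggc
Each of these 5 windows holds CCAAT, which lies 14 to 10 bases before the start in Plk1 and 12 to 8 bases before it in Cenpe and Racgap1. Cenpf has a pair of CCAAT words in the gene's direction and 1 E2F-like word, and none of the 5 windows holds a CHR word. The start used for Cenpf lies 21 bases from the outer end of the gene in RefSeq, and in the other 4 it is that end.

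The cell cycle genes gave signal above the floor in all 3 arrays, at nearly equal values. In 23 of the 33 genes (69.7%) the 3 arrays held the same value, to within 0.001 on the log2 scale, as did 75.0% of the 17653 genes at or above the floor and 71.5% of the 9729 genes in the same range of brightness. An equal value does not show equal RNA, since processing before deposit can hide a small difference. Some different genes also shared a value, such as 109.734 units for Ccnd3 and Clspn in all 3 arrays. Which step gave the equal values was not tested. The summed intensity of the 33 genes was 51930 with SEMA3E and IgG, 51346 with SEMA3E and 50442 in control medium, and their mean log2 level was 9.31 in each array. The sum mostly follows its brightest genes, Mki67 (17072, 16323 and 16323 units in the same order) and Pcna (15343, 15569 and 14556). The widest gap of any of the 33 genes in any comparison was 0.11 on the log2 scale, so that none reached 1.5-fold.

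**Figure D1:**
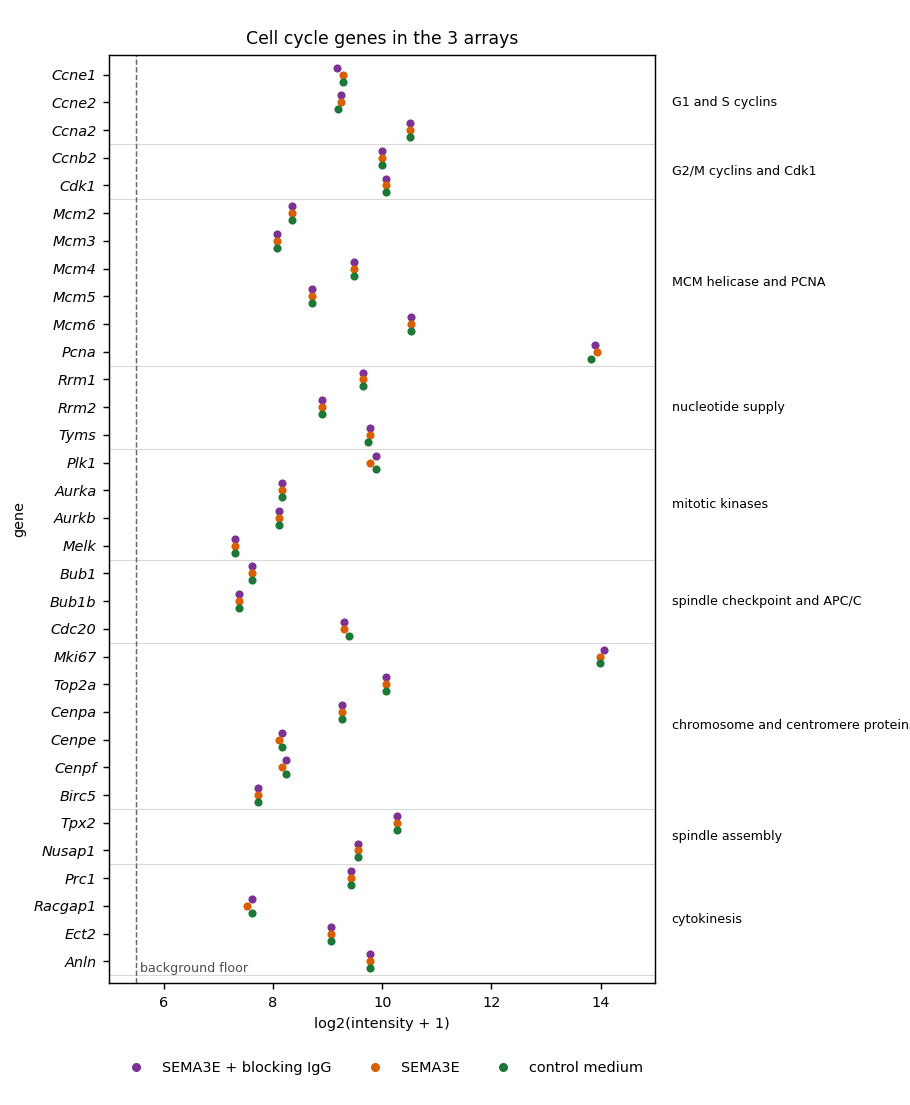
Log2(intensity + 1) of 33 cell cycle genes (rows, grouped by role) in the 3 arrays, 1 point per array. All points lie to the right of the floor at 5.48 (dashed line), and for 23 genes the 3 points stand at the same value. Levels of different genes come from different probes and are not comparable.

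Among the cyclins, Ccna2, the cyclin of S phase and G2, held 1451 units in all 3 arrays. Ccne1, which drives entry into S phase with Cdk2, held 575 units with SEMA3E and IgG, 620 with SEMA3E and 620 in control medium. Its relative Ccne2 held 607 units with SEMA3E and IgG, 607 with SEMA3E and 585 in control medium. The E-type cyclins thus differed in opposite directions and in different arrays, Ccne1 in the array with IgG and Ccne2 in the control array. The mitotic cyclin gene Ccnb2 held 1023 units in each array, and Cdk1, the kinase it activates, held 1080 in each.

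Genes of DNA replication were mostly equal in the 3 arrays. The MCM proteins form the helicase that opens replication origins, and Mcm2 (325 units), Mcm3 (269), Mcm4 (719), Mcm5 (420) and Mcm6 (1480) each held 1 value in all 3 arrays. Pcna, the sliding clamp that holds DNA polymerase on its template, held 15343 units with SEMA3E and IgG, 15569 with SEMA3E and 14556 in control medium. It was the single gene of the list with 3 different values, and both arrays with SEMA3E lay above control. Of the enzymes that supply nucleotides, the ribonucleotide reductase subunits Rrm1 (798 units) and Rrm2 (473) were equal in the 3 arrays. Tyms, which makes thymidylate, held 874 units with SEMA3E and IgG, 874 with SEMA3E and 857 in control medium.

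Of the mitotic kinases, Plk1, which acts in centrosome maturation, spindle assembly and cytokinesis, held 947 units with SEMA3E and IgG, 877 with SEMA3E and 947 in control medium. The SEMA3E array was low and the other two were equal. Aurka (285 units), which works at spindle poles, Aurkb (275), the kinase of the chromosomal passenger complex, and Melk (157) were equal in all 3 arrays. Among genes of the spindle checkpoint, the checkpoint kinase gene Bub1 (196 units) and its relative Bub1b (164) were equal. Cdc20, the activator of the anaphase-promoting complex, held 631 units with SEMA3E and IgG, 631 with SEMA3E and 674 in control medium, so that the control array was high.

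Of the chromosome and centromere genes, Mki67, which encodes the proliferation antigen Ki-67, held 17072 units with SEMA3E and IgG, 16323 with SEMA3E and 16323 in control medium. Only the array with IgG stood apart for this gene. The motor protein gene Cenpe, which moves chromosomes to the spindle equator, held 285 units with SEMA3E and IgG, 274 with SEMA3E and 285 in control medium. Cenpf, which encodes a protein of the outer kinetochore, held 301 units with SEMA3E and IgG, 287 with SEMA3E and 301 in control medium. In both centromere genes the SEMA3E array was low. Top2a (1077 units), the topoisomerase that untangles DNA before chromosomes separate, Cenpa (614), the centromeric histone variant, and Birc5 (212), the passenger protein survivin, were equal in all 3 arrays.

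The spindle assembly genes Tpx2 (1232 units), an activator of Aurora A, and Nusap1 (757), a microtubule-bundling protein, were equal in the 3 arrays. Cytokinesis splits the daughter cells, and Racgap1, a subunit of the centralspindlin complex that directs it, held 195 units with SEMA3E and IgG, 184 with SEMA3E and 195 in control medium. Here too the SEMA3E array was low and the other two equal. Its partners Ect2 (535 units), the exchange factor that activates RhoA, Prc1 (687), which bundles the midzone microtubules, and the ring protein gene Anln (871) were equal in all 3 arrays.

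SEMA3E was set against control medium to ask whether cell cycle RNA differs after exposure to it. In 25 of the 33 genes these arrays held equal values, as in 14404 of all 17653 genes at or above the floor. No difference among the 33 genes was wider than 0.11 on the log2 scale. Pcna (log2 difference 0.10), Ccne2 (0.05) and Tyms (0.03) were higher with SEMA3E, and Plk1 (-0.11), Cdc20 (-0.09), Racgap1 (-0.09), Cenpf (-0.07) and Cenpe (-0.05) were lower.

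Taken over the 33 genes, the shares that differed lay near those of all genes. Of the 33 genes 5 were lower (15.2%) and 3 higher (9.09%) with SEMA3E, against 12.2% lower and 6.16% higher of all 17653 genes, and 15.4% lower and 5.3% higher of the genes in the same range of brightness. At a ratio of 21 to 20 or wider, 3 of 33 were lower (Plk1, Cdc20 and Racgap1) and 1 higher (Pcna), against 4.91% lower and 3.02% higher of all genes. A difference as low as that of Plk1 was found in 3.17% of all genes, and one as high as that of Pcna in 2.19%. In the same pair of arrays 8 of 12 neuron markers were lower and 0 higher. With SEMA3E and IgG against control medium 7 of the 12 were lower and 0 higher. The part of neuron markers in the cell cycle values was not tested. The median difference was 0 over the 33 genes and 0 over all genes. At 1.5-fold there were 0 of 33 in either direction, against 0.0963% lower and 0.0736% higher of all genes.

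**Figure D2:**
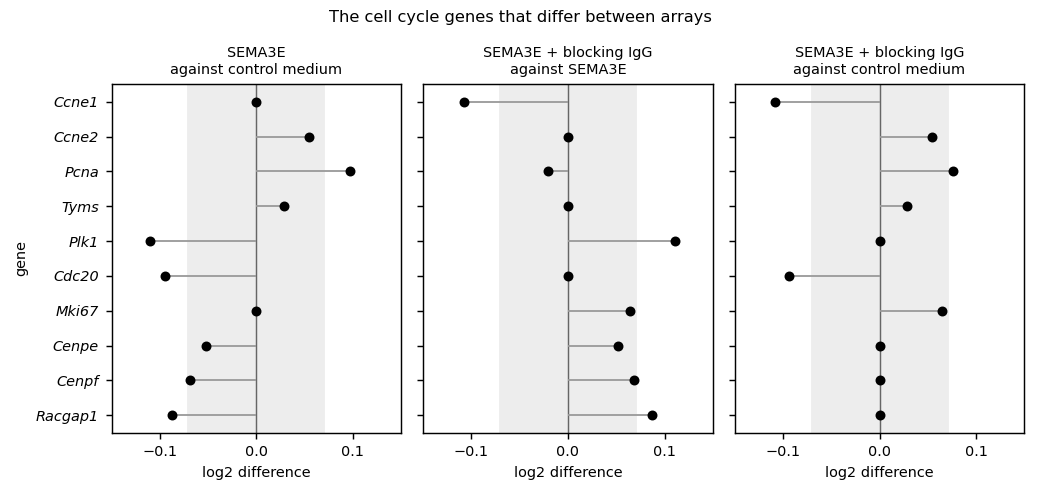
Log2 difference between 2 arrays (x axis) for the 10 cell cycle genes that are not equal in all 3 arrays, 1 panel per comparison. The grey band marks ratios narrower than 21 to 20, and no point goes past 0.11 in either direction. The left and middle panels share the SEMA3E array, and the middle and right panels share the array with IgG.

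The array with blocking IgG was then set against the array with SEMA3E to ask what differs once the antibody is present. Plk1 (log2 difference 0.11), Racgap1 (0.09), Cenpf (0.07), Mki67 (0.06) and Cenpe (0.05) were higher with IgG, and Ccne1 (-0.11) and Pcna (-0.02) were lower. This comparison and the one before it share the SEMA3E array, in which Plk1, Racgap1, Cenpf and Cenpe had their odd value, so the opposite signs of these 4 genes come from 1 array and are not separate measurements.

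Of the 33 genes 5 (15.2%) were higher and 2 (6.06%) lower with IgG, against 10.1% higher and 10.3% lower of all genes. In the same range of brightness 11.9% were higher and 11.4% lower. At a ratio of 21 to 20 or wider, Plk1 and Racgap1 were higher and Ccne1 was lower, 2 and 1 of 33, against 4.77% and 4.67% of all genes. Cenpf lay just short of that ratio and passed it after quantile normalization, which made the higher count 3. At 1.5-fold there were 0 of 33, against 0.0793% higher and 0.0566% lower of all genes. As many as 3.26% of all genes lay as far above the SEMA3E array as Plk1, and 2.98% as far below it as Ccne1.

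The comparison of SEMA3E with IgG against control medium asked what remained different from control with the antibody present. Pcna (log2 difference 0.08), Mki67 (0.06), Ccne2 (0.05) and Tyms (0.03) were higher with IgG, and Ccne1 (-0.11) and Cdc20 (-0.09) were lower. Ccne2, Tyms and Cdc20 had the same value in both arrays with SEMA3E, and Plk1, Cenpe, Cenpf and Racgap1 equalled control. Of the 33 genes 4 were higher (12.1%) and 2 lower (6.06%), against 7.51% higher and 11.3% lower of all genes. In the same range of brightness 8.04% were higher and 14.1% lower. At a ratio of 21 to 20 or wider there were 1 higher (Pcna) and 2 lower (Ccne1 and Cdc20) of 33, against 3.75% and 5.05% of all genes, and at 1.5-fold 0, against 0.0623% and 0.142%. The count of 1 higher gene depended on the scaling: Mki67 lay just short of that ratio and passed it after median centring and after quantile normalization, which made the count 2.

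**Figure D3:**
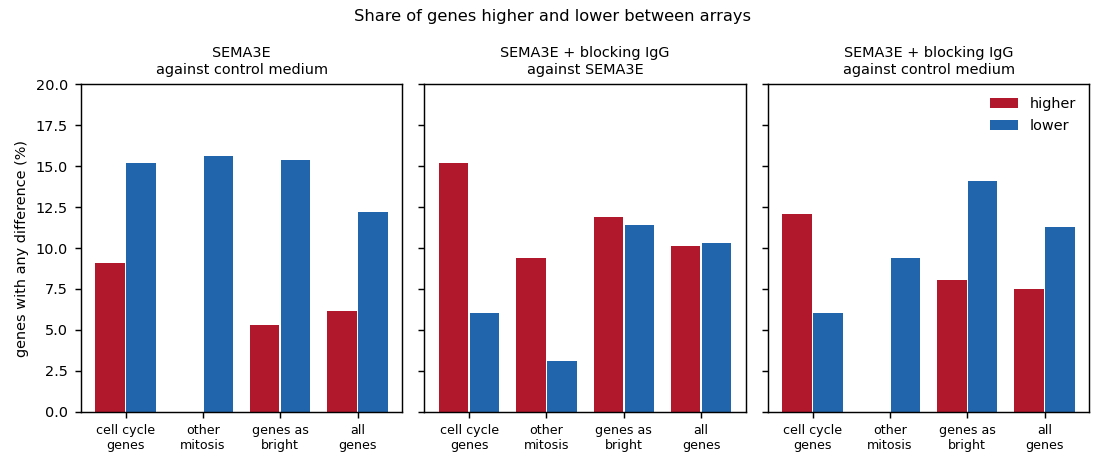
Percent of genes with any difference between 2 arrays (y axis), higher (red) and lower (blue), for the 33 cell cycle genes, 32 other mitosis genes, all genes in the same range of brightness and all genes at or above the floor. With SEMA3E against control medium 15.2% of the cell cycle genes and 12.2% of all genes were lower. Each array pair is 1 against 1, so the bars have no error.

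The 10 genes that were not equal fall by which array held the odd value. The SEMA3E array stood apart in 4 of 33 genes (12.1%), all lower, against 6.12% of all genes. Among all 1081 genes with that pattern 59.9% were lower in the SEMA3E array, and 71.6% of those in the same range of brightness. The control array stood apart in 3 genes (Ccne2, Tyms and Cdc20), or 9.09% against 4.59% of all genes, and the array with IgG in 2 (Ccne1 and Mki67), or 6.06% against 6.55%. Counts of 2 to 4 genes cannot separate these shares.

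Other cell cycle genes, from lists written from general knowledge, were also mostly equal. Of 32 further mitosis genes above the floor 26 (81.2%) were equal in all 3 arrays, against 75.0% of all genes. Hmmr, a spindle protein, held 792 units with SEMA3E and IgG, 746 with SEMA3E and 792 in control medium, and Aspm, which acts at spindle poles, held 273, 265 and 273 in the same order. The kinetochore gene Spc24 held 1131, 1131 and 1177, and the securin gene Pttg1 507, 507 and 524. With SEMA3E against control, 5 of the 32 were lower (15.6%) and 0 higher, against the 12.2% and 6.16% of all genes. With IgG against SEMA3E, 3 were higher (9.38%) and 1 lower (3.12%), against 10.1% and 10.3% of all genes. With IgG against control 0 were higher and 3 lower (9.38%), against 7.51% and 11.3% of all genes. Hmmr and Aspm shared the low value in the SEMA3E array with Plk1, whereas Spc24 and Pttg1 were high in the control array, as Cdc20 was.

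Of 26 further genes of origin licensing, replication and nucleotide supply 25 were equal in the 3 arrays, and the exception was the GINS subunit gene Gins3, with 373 units with SEMA3E and IgG, 373 with SEMA3E and 381 in control medium. All 13 further G1 cyclins, kinases and phosphatases above the floor, among them Ccnd2, Cdk2, Cdk4 and Cdk6, were equal in the 3 arrays. Of 12 E2F, B-Myb and FoxM1 regulators, E2f4, a mostly repressive E2F, held 666 units with SEMA3E and IgG, 653 with SEMA3E and 666 in control medium, and the other 11 were equal. Beside these counts, 75.0% of all genes at or above the floor were equal in the 3 arrays.

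Brakes of the cycle were also close to equal. Of 9 CDK inhibitor and pocket protein genes above the floor, 3 were lower and 0 higher with SEMA3E against control, where 12.2% of all genes were lower and 6.16% higher. Cdkn1a, the p53-induced inhibitor p21, held 63835 units with SEMA3E and IgG, 62836 with SEMA3E and 63835 in control medium. The p27 gene Cdkn1b held 110 units with SEMA3E and IgG, 110 with SEMA3E and 113 in control medium, and Cdkn2d held 218, 218 and 223 in the same order. The widest of these gaps was 0.04 on the log2 scale. Foxm1 and Mcm7 are not analysed here because their probe sets carry several names, and Cdkn2a, E2f2 and Fen1 lay below the floor.

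**Figure D4:**
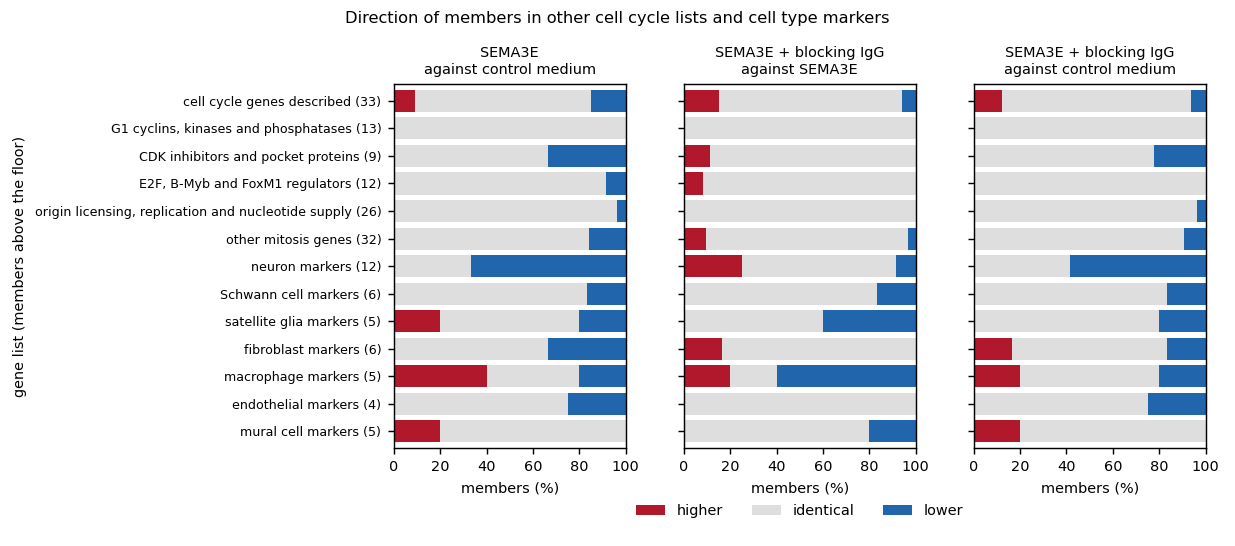
Percent of each list's members above the floor (number in brackets) that were higher (red), equal (grey) or lower (blue) in each comparison. Each of the 6 cell cycle lists drawn is mostly grey. Of all 17653 genes at or above the floor 14404, 14058 and 14328 were equal in the panels from left to right. Neuron markers are the list with the largest lower share with SEMA3E against control, 8 of 12, and with SEMA3E and IgG against control, 7 of 12.

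Markers of the cells that the culture could hold were checked beside these values. Above the floor lay 12 of 12 neuron, 6 of 6 measured Schwann cell, 5 of 5 satellite glia, 6 of 6 fibroblast and 5 of 5 mural cell markers. So did 5 of 7 macrophage and 4 of 5 endothelial markers. Of all 30142 genes 17653 lay at or above the floor, so these counts alone do not show that a cell type was present. Cdh19 was counted in both the Schwann cell and the satellite glia list. Slc1a3 (5.82) and Kdr (5.66) lay close to the floor of 5.48 on the log2 scale. Csf1r, Ptprc and Tek lay below the floor, and no marker was listed at 0. The summed intensity of the neuron markers was 368719 units with SEMA3E against 374717 in control medium. Tubb3, the neuronal beta-tubulin, held 11305 units with SEMA3E and IgG, 11305 with SEMA3E and 12589 in control medium. Summed Schwann cell markers were 143693 with SEMA3E against 143964 in control medium, satellite glia 12508 against 12231, fibroblast 13558 against 13649, macrophage 4131 against 3874, endothelial 268 against 276 and mural 14287 against 13463. A sum follows its brightest members, which did not always go with the rest. The satellite glia sum was higher with SEMA3E through Fabp7, at 3970 against 3631 units, while Kcnj10 was lower, at 337 against 399, and was 273 with IgG. Among macrophage markers Lyz2 was higher, at 2480 with SEMA3E against 2171 in control medium, and Cd68 was lower, at 1031 against 1087. With IgG the sums were 369253 for neuron, 143441 for Schwann cell, 12105 for satellite glia, 13678 for fibroblast, 4046 for macrophage, 268 for endothelial and 14279 for mural cell markers. The part of these cells in the cell cycle values was not tested.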

How the data were processed

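The authors deposited 1 intensity per probe set and array, which the submitters' processing notes credit to Affymetrix Expression Console. RNA was taken with TRIzol and labelled with the GeneChip WT Pico kit, per the labels' protocols. Its version, the normalization and the build are not given in the sources. The values run from 6.12 to 496402 on a linear scale, with medians of 44.5, 45.0 and 44.5 with SEMA3E and IgG, with SEMA3E and in control medium, so log2(value + 1) was used and each difference is between 2 arrays.

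Of 65956 probe sets 30604 have a single symbol, 827 of them updated by gene number with RefSeq (GRCm38.p6), and the brightest probe set was kept per gene. The floor, 5.48 on the log2 scale, is the 95th percentile over 492 vomeronasal receptor genes of their mean level. Values closer than 0.001 on the log2 scale were called equal. Genes were named if they differed in any array, and of other lists at most 4 members were named. Membership, lists and thresholds were chosen with earlier results of these data known. The comparison with genes of equal brightness, the split into S phase and mitosis genes and the promoter motifs were added after the data were seen. Alternatives were 3 scalings, a pseudocount of 16, no floor, a floor from olfactory receptor genes and the mean of probe sets. The counting was tested on simulated data. The number of arrays, 3, limits the precision. Python 3.11.15 with numpy 2.4.6, pandas 2.3.3, statsmodels 0.14.6 and matplotlib 3.10.9 was used.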

Additional observations from a re-analysis of the deposited data

How the results depend on the processing

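Counts of cell cycle genes at a ratio of 21 to 20 or wider, higher and lower in 3 comparisons, were recomputed under 7 alternatives. Of the 42 values 40 stayed within 1.5 times the count on the deposited scale. The others were the genes higher with SEMA3E and IgG against control medium, 2 in place of 1 after median centring and 2 after quantile normalization. Within the limit of 1.5 times, the genes higher with IgG against SEMA3E became 3 in place of 2 after quantile normalization, through Cenpf. All 8, 7 and 6 genes that differed in the 3 comparisons kept their direction under median centring, loess, quantile normalization and a pseudocount of 16. A pseudocount cannot change a direction. Median centring moved each difference by at most 0.0062, less than the narrowest gap among these genes, 0.0211 for Pcna. These settings are therefore no check of the directions. No scaling moved the median of all genes by more than 0.0062 on the log2 scale. That is wider than the 0.001 limit for equal values. Which genes were equal was not recomputed, so the counts of equal genes and of any difference hold for the deposited scale. No floor, a floor from olfactory receptor genes and the mean over probe sets left the counts as they were, but could not have changed them. Each of the 33 genes has 1 probe set, and the lowest level, 7.31, lies above both floors (5.48 and 5.58). Their values among the 42 are therefore no check of the counts. No paired analysis was possible because each medium has 1 array, and for the same reason no array could be left out.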
